A study of Caenorhabditis elegans with 6 samples.

Results

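The UDP-glucuronosyltransferase (UGT) genes of Caenorhabditis elegans were followed across RNA interference (RNAi) against rab-11.1, a small GTPase gene of recycling endosomes. Members were all genes named ugt followed by a number in the deposited expression table, which gave 65 of its 46739 features. Whole wild-type worms of the strain N2, collected as L4 larvae, had been fed HT115 bacteria that make double-stranded RNA throughout development at 20 °C on plates with IPTG and carbenicillin. There were 3 libraries of polyadenylated RNA from worms fed the rab-11.1 clone and 3 from worms on the empty vector, a control clone without a worm target. The libraries are called biological replicates 1 to 3 in each group. File headers add a code for each library and a further string shared by all, without saying what these mark. The labels do not say whether the replicates were grown apart, so p-values measure only the spread between these samples.

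UGT enzymes sit in the membrane of the endoplasmic reticulum and join a sugar, taken from a UDP-sugar, to small fat-soluble molecules. The conjugate is more soluble in water and can be carried out of the cell by transporters, and this step is known as phase II of detoxification. Vertebrate UGTs mostly transfer glucuronic acid, while nematodes have been found to attach glucose to drugs and other foreign compounds. The worm family is large, and many of its genes are active in the intestine. In whole animals, fewer cells of a type and less RNA per cell cannot be told apart.

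Depth, worked out from the spacing of the deposited values, was 22946375 to 25107994 reads per library after rab-11.1 RNAi and 27190567 to 30183162 reads with the empty vector. The targeted gene rab-11.1 measured 151, 138 and 633 RPKM (reads scaled by transcript length and sequencing depth) after rab-11.1 RNAi, against 411, 398 and 410 RPKM with the empty vector. The library labelled replicate 3 of rab-11.1 RNAi thus held 156% of the empty vector mean of its own target, whereas replicates 1 and 2 held 37.2% and 33.9%. Its target level runs counter to the label, and for each gene named below as past the threshold it is said whether the call held without it. On the first axis of a principal component analysis this library lay at -11.4, nearest to rab-11.1 RNAi replicate 1 at -17.3. Replicate 2 of rab-11.1 RNAi lay at -50.5, and empty vector replicates 1, 2 and 3 at 39.1, 6.4 and 33.7. The reason for the high target level was not tested. Defining genes of gut, epidermis, muscle, neurons and germ line were found in these whole-worm libraries. The gut marker opt-2 was not matched in the table by name, and none of the matched markers was at 0 in every library.

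Most of the family was expressed. Of the 65 genes, 53 reached 1 RPKM in at least 3 libraries and were tested, and 12 did not and were not tested. No gene passed this filter through libraries of 1 group alone. All 65 together summed to 1419, 1191 and 1273 RPKM after rab-11.1 RNAi (replicates 1, 2 and 3), against 1035, 1158 and 1065 RPKM with the empty vector, so the groups did not overlap at the deposited scaling. The sums averaged 1294 ± 115 RPKM after rab-11.1 RNAi and 1086 ± 64.1 RPKM with the empty vector (SD, n = 3 each), a ratio of 1.19. Divided by median-of-ratios factors, the sums were 1355, 1140 and 1218 after rab-11.1 RNAi, against 1077, 1235 and 1098 with the empty vector, which overlap, with a ratio of 1.09. The family took 0.153% to 0.187% of all RPKM after rab-11.1 RNAi and 0.14% to 0.149% with the empty vector.

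The most abundant gene after rab-11.1 RNAi was ugt-62, in each of the 3 libraries, followed by ugt-44 and ugt-22 in mean RPKM. With the empty vector ugt-22 ranked first in replicates 1 and 3 and ugt-62 in replicate 2, with ugt-47 next after these in all 3. The ratio of ugt-62 to ugt-22 was 5.0, 2.34 and 3.05 in the rab-11.1 RNAi libraries, against 0.84, 1.25 and 0.739 in the empty vector libraries. The 5 most abundant members of a library held 40.2% to 49.7% of the family sum after rab-11.1 RNAi and 42.3% to 44.5% with the empty vector.

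**Figure D1:**
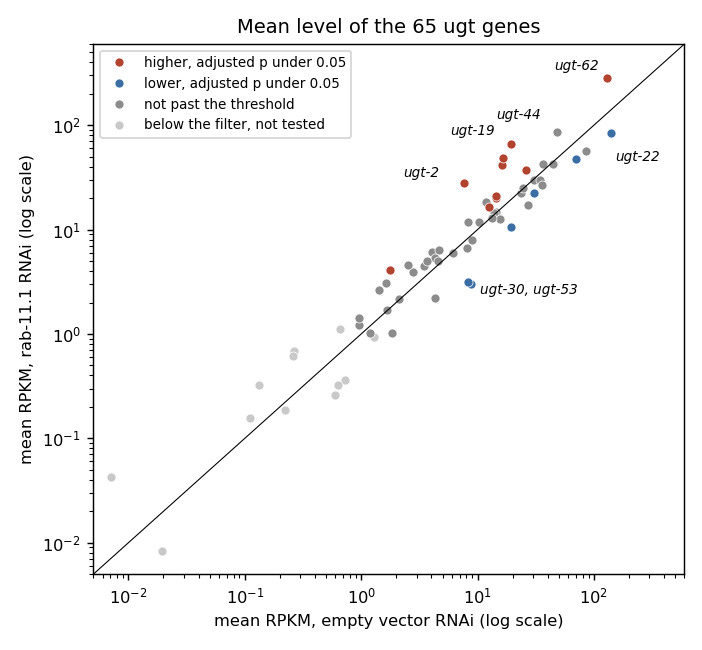
Mean RPKM of the 65 ugt genes after rab-11.1 RNAi (vertical axis) against the mean with the empty vector (horizontal axis), both on log scales, with 1 point a gene, the mean of 3 libraries on each axis, and a diagonal of equal levels. Genes past the threshold lie on both sides of the diagonal, with ugt-62, ugt-19 and ugt-2 above it and ugt-22, ugt-30 and ugt-53 below it.

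Members moved in both directions. By limma on log2(RPKM + 1), with Benjamini-Hochberg adjustment over all 13833 features tested and a threshold of 0.05, 10 ugt genes were higher after rab-11.1 RNAi, 6 were lower, and 37 did not pass. Over all features, 1097 or 7.93% were higher and 148 or 1.07% lower, so that 18.9% of tested members were higher beside 7.93% of all features, and 11.3% were lower beside 1.07%. The median log2 fold change was 0.11 over the members and 0.09 over all features, while the spread was wider in the family, with an SD of 0.64 against 0.45. At a log2 fold change of 1 or more in size stood 13.2% of the members and 4.03% of all features. At this size and past the threshold, 5 members were higher and 2 lower, beside 2.88% and 0.275% of all features. Yolk and adult cuticle genes, described with the other markers at the end, also differed between the groups (5 of 9 lower, and 3 of 9 without the library labelled replicate 3 of rab-11.1 RNAi), and their part in these counts was not tested.

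The split between directions depended on the scaling. Median-of-ratios scaling moved the median of all features by -0.11 and quantile normalization by -0.13 on the log2 scale. With median-of-ratios scaling 4 members were higher and 9 lower (4% and 2.05% of all features), and with quantile normalization likewise 4 and 9 (3.79% and 1.8%). The 4 higher genes were ugt-2, ugt-16, ugt-19 and ugt-25 under all 3 scalings, and the 6 lower genes were also lower under both rescalings. Without the library labelled replicate 3 of rab-11.1 RNAi, 5 members were higher and 6 lower (4.17% and 0.596% of all features). All 16 genes kept their direction in that fit, which was fixed beforehand because their groups did not overlap, and 11 of them stayed past the threshold. Leaving out both replicate 2 libraries, which lay apart from the rest, gave 11 members higher and 8 lower (12.3% and 3.48% of all features). With the replicate number as a block and no replicate 3 library, 4 members were higher and 4 lower (5.65% and 1.22% of all features).

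**Figure D2:**
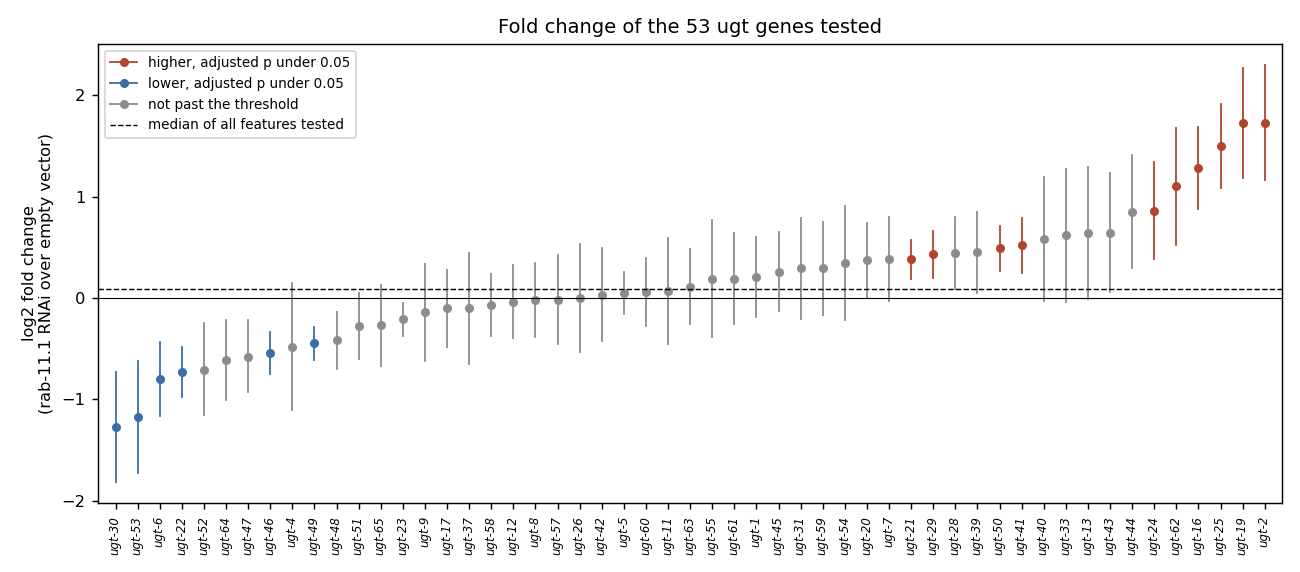
Log2 fold change of rab-11.1 RNAi over empty vector on log2(RPKM + 1) for the 53 ugt genes tested (horizontal axis, in order), with 95% confidence intervals from the limma fit of 3 libraries against 3. Values run from -1.27 for ugt-30 to 1.73 for ugt-2, and the dashed line marks the median of all features tested at 0.09.

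Of the genes that rose, 4 with moderate empty vector levels had the largest fold changes. The gene ugt-19 (WBGene00019515, WBcel235 chromosome IV, 6076686 to 6079952, minus strand) reached 86.7, 59.3 and 53.7 RPKM after rab-11.1 RNAi, against 18.3, 24.8 and 15.1 RPKM with the empty vector. Its lowest rab-11.1 RNAi library lay above its highest empty vector library, and its mean was 3.43 times as high (log2 fold change 1.73, SE 0.23, adjusted p = 0.00792). The gene moved in rank of mean level within the family to position 4 after rab-11.1 RNAi, against position 17 with the empty vector.

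The gene ugt-2 (WBGene00007073, chromosome V, 10398801 to 10401307, plus strand) had 24.95, 36.3 and 22.2 RPKM after rab-11.1 RNAi, against 5.97, 10.4 and 6.74 RPKM with the empty vector. These rested on 966, 1428 and 939 reads after rab-11.1 RNAi and on 304, 526 and 309 reads with the empty vector. Replicate 2 was the highest in both groups, the groups stood apart, and the ratio of means was 3.61, the largest of the tested members (log2 fold change 1.73, SE 0.24, adjusted p = 0.00929).

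The gene ugt-25 (WBGene00015692, chromosome I, 4731606 to 4735276, plus strand) reached 43.9, 61.8 and 41.0 RPKM after rab-11.1 RNAi, against 15.9, 19.2 and 14.4 RPKM with the empty vector. Its mean was 2.96 times as high, and its adjusted p of 0.00545 by limma was the smallest in the family (log2 fold change 1.5, SE 0.18). Its exons overlap 26 bases of the antisense gene mlst-8, which stood at 13.6 to 14.7 RPKM after rab-11.1 RNAi and 11.6 to 13.9 RPKM with the empty vector. The gene ugt-16 (WBGene00013901, chromosome V, 12825024 to 12827442, plus strand), which is known to be induced by the anthelmintic drug albendazole, had 36.5, 51.4 and 36.0 RPKM after rab-11.1 RNAi, against 13.4, 17.9 and 17.6 RPKM with the empty vector. Its mean rose 2.54-fold (log2 fold change 1.28, SE 0.17, adjusted p = 0.00824).

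In the fit without the library labelled replicate 3 of rab-11.1 RNAi the log2 fold changes of ugt-19, ugt-2, ugt-25 and ugt-16 were 1.86, 1.87, 1.61 and 1.37, and all passed (adjusted p = 0.0204, 0.0229, 0.0161 and 0.0231). For these 4 genes that library was the lowest of its group. The genes ugt-25, ugt-19 and ugt-16 held in each of the 6 leave-one-out fits (highest adjusted p = 0.0363, 0.0428 and 0.0406). The call of ugt-2 ended without empty vector replicate 3 (adjusted p = 0.0565).

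The most abundant member, ugt-62 (WBGene00010904, chromosome III, 4537281 to 4540623, minus strand), reached 381, 197 and 273 RPKM after rab-11.1 RNAi, against 117, 155 and 113.9 RPKM with the empty vector. The libraries of the groups did not overlap, but rab-11.1 RNAi replicate 2, the lowest of its group, and empty vector replicate 2, the highest of its group, lay near each other. The mean was 2.21 times as high (284 ± 92.8 RPKM after rab-11.1 RNAi and 129 ± 23.2 RPKM with the empty vector, SD, n = 3 each, log2 fold change 1.1, SE 0.24, adjusted p = 0.0399). It held 16.5% to 26.9% of the family sum after rab-11.1 RNAi and 10.7% to 13.4% with the empty vector. With both replicate 2 libraries left out, a fit added after seeing the data, the adjusted p of ugt-62 was 0.00294. That fit drops the empty vector library with the lowest sum of yolk and adult cuticle genes (314.1 RPKM, against 1558 and 1423 RPKM). The adjusted p was 0.142 with the replicate number as a block on replicates 1 and 2 alone. It was 0.0934 without the library labelled replicate 3 of rab-11.1 RNAi and 0.0718 with median-of-ratios scaling.

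The 5 other higher genes changed less or stood lower. The gene ugt-24 had 5.41, 3.53 and 3.35 RPKM after rab-11.1 RNAi, against 1.60, 1.55 and 2.19 RPKM with the empty vector (log2 fold change 0.86, SE 0.20, adjusted p = 0.0467), and it was the least abundant member past the threshold. The genes ugt-41, ugt-50, ugt-29 and ugt-21 rose 1.47-fold, 1.42-fold, 1.38-fold and 1.32-fold, to means of 21, 36.9, 19.9 and 16.5 RPKM after rab-11.1 RNAi, against 14.3, 25.9, 14.5 and 12.5 RPKM with the empty vector. Replicates of ugt-21 lay close together, with 16.7, 16.4 and 16.6 RPKM after rab-11.1 RNAi, against 12.1, 13.1 and 12.4 RPKM with the empty vector. Exons of ugt-50 overlap 340 bases of the antisense gene nhr-26, which had 0 reads in 4 libraries and 6 reads in each of the replicate 3 libraries.

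The calls of ugt-62, ugt-24, ugt-41, ugt-50, ugt-29 and ugt-21 ended under median-of-ratios scaling (adjusted p = 0.0718, 0.0727, 0.0853, 0.075, 0.113 and 0.122) and under quantile normalization (0.0595, 0.0871, 0.104, 0.089, 0.145 and 0.18). Without the library labelled replicate 3 of rab-11.1 RNAi, ugt-41 passed (adjusted p = 0.0422), whereas ugt-62, ugt-24, ugt-50, ugt-29 and ugt-21 did not (adjusted p = 0.0934, 0.0719, 0.0745, 0.0699 and 0.0888). The call of each of these 6 genes also ended without empty vector replicate 1, without empty vector replicate 3 and without rab-11.1 RNAi replicate 1. Those of ugt-24, ugt-29, ugt-41 and ugt-21 ended without rab-11.1 RNAi replicate 2, and those of ugt-24, ugt-29 and ugt-41 without empty vector replicate 2. Their highest adjusted p values over the fits that left out 1 library were 0.157 for ugt-62, 0.159 for ugt-24, 0.149 for ugt-41, 0.118 for ugt-50, 0.144 for ugt-29 and 0.143 for ugt-21.

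**Figure D3:**
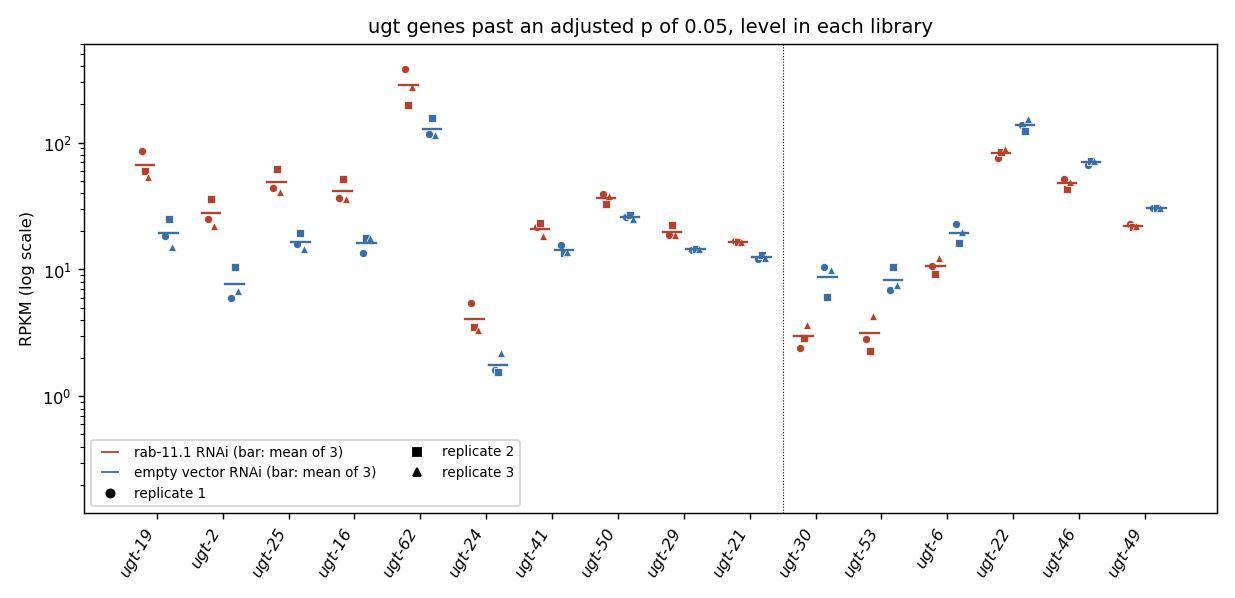
RPKM on a log scale of the 16 ugt genes past an adjusted p of 0.05 in each library, with rab-11.1 RNAi left of empty vector for each gene, marker shapes for replicates 1 to 3 and bars for the mean of 3 libraries. The 10 genes left of the dotted line were higher after rab-11.1 RNAi and the 6 genes right of it lower, and in all 16 the libraries of the groups did not overlap.

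Among the genes that fell was ugt-22, the most abundant member with the empty vector. In C. elegans the level of ugt-22 is known to alter the effect of albendazole. The gene (WBGene00007455, chromosome IV, 13639260 to 13644567, plus strand) measured 76.3, 84.1 and 89.4 RPKM after rab-11.1 RNAi, against 139, 124 and 154 RPKM with the empty vector. The groups stood well apart, with means of 83.3 ± 6.58 RPKM after rab-11.1 RNAi and 139 ± 15 RPKM with the empty vector (SD, n = 3 each, log2 fold change -0.73, SE 0.10, adjusted p = 0.0101). Of the family sum ugt-22 held 5.38% to 7.06% after rab-11.1 RNAi and 10.7% to 14.5% with the empty vector. Its exons overlap 309 bases of the antisense gene srz-29, which had 4 reads in 1 library and 0 in the other 5.

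The deepest decreases were those of ugt-30 and ugt-53, both at low levels. The gene ugt-30 had 2.41, 2.89 and 3.66 RPKM after rab-11.1 RNAi, against 10.4, 6.03 and 9.93 RPKM with the empty vector (log2 fold change -1.27, SE 0.23, adjusted p = 0.022). The gene ugt-53 had 2.83, 2.26 and 4.33 RPKM after rab-11.1 RNAi, against 6.95, 10.4 and 7.48 RPKM with the empty vector (log2 fold change -1.18, SE 0.23, adjusted p = 0.0293). For both genes the library labelled replicate 3 of rab-11.1 RNAi was the nearest of its group to the empty vector libraries, and the ratios of the empty vector mean to the rab-11.1 RNAi mean were 2.94 and 2.64.

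The genes ugt-6, ugt-46 and ugt-49 fell by smaller amounts. The gene ugt-6 had 10.7, 9.16 and 12.3 RPKM after rab-11.1 RNAi, against 22.7, 16.2 and 19.7 RPKM with the empty vector (log2 fold change -0.80, SE 0.15, adjusted p = 0.027). The gene ugt-46, the fifth in mean level over all libraries, had 51.4, 43.3 and 48.6 RPKM after rab-11.1 RNAi, against 66.6, 71.0 and 72.3 RPKM with the empty vector (log2 fold change -0.54, SE 0.09, adjusted p = 0.0142). Replicates of ugt-49 lay close together, with 22.7, 21.8 and 22.2 RPKM after rab-11.1 RNAi, against 30.7, 30.4 and 30.8 RPKM with the empty vector (log2 fold change -0.45, SE 0.07, adjusted p = 0.0118).

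All 6 lower genes passed without the library labelled replicate 3 of rab-11.1 RNAi, with log2 fold changes of -0.78 for ugt-22, -1.39 for ugt-30, -1.38 for ugt-53, -0.90 for ugt-6, -0.56 for ugt-46 and -0.45 for ugt-49 (adjusted p = 0.0255, 0.0445, 0.0286, 0.0451, 0.0453 and 0.0435). None of the 6 passed without empty vector replicate 1 or without empty vector replicate 3. Calls also ended without rab-11.1 RNAi replicate 1 (ugt-49, ugt-30, ugt-6 and ugt-53), without rab-11.1 RNAi replicate 2 (ugt-30, ugt-6 and ugt-53) and without empty vector replicate 2 (ugt-53). The highest adjusted p values over these fits were 0.0528 for ugt-22, 0.108 for ugt-30, 0.108 for ugt-53, 0.117 for ugt-6, 0.083 for ugt-46 and 0.0737 for ugt-49.

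The makeup of the family sum shifted. The 10 higher genes together held 47.6%, 42.3% and 40.9% of the family sum after rab-11.1 RNAi, against 23.1%, 25.7% and 22.1% with the empty vector. The 6 lower genes held 11.7%, 13.7% and 14.2% after rab-11.1 RNAi, against 26.7%, 22.3% and 27.6% with the empty vector. These groups of genes were formed from the same values, so the shares describe the size of the shift and are no further test. The other 49 genes summed to 557.7 ± 29.0 RPKM after rab-11.1 RNAi and 552.3 ± 44 RPKM with the empty vector (SD, n = 3 each).

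**Figure D4:**
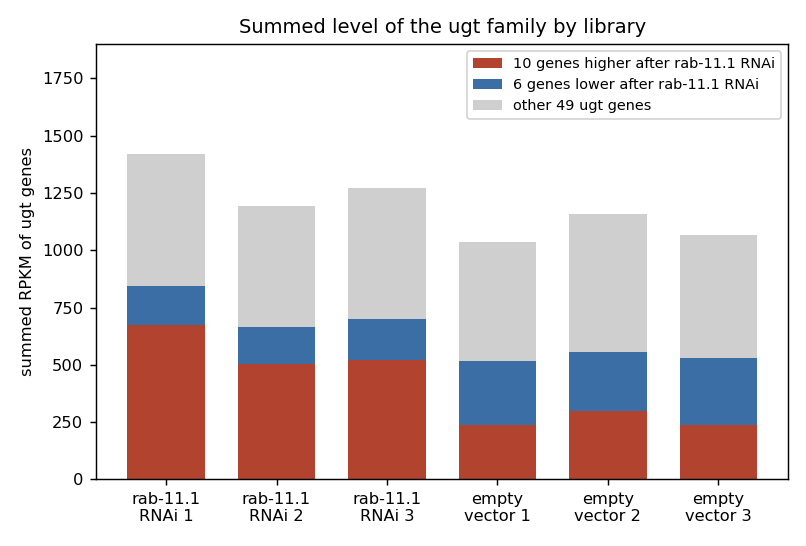
Summed RPKM of the 65 ugt genes in each library, stacked as the 10 genes higher after rab-11.1 RNAi, the 6 lower and the other 49. The bars reach 1191 to 1419 RPKM after rab-11.1 RNAi and 1035 to 1158 RPKM with the empty vector, and the sum of the 10 higher genes averages 566.6 RPKM after rab-11.1 RNAi and 257.4 RPKM with the empty vector.

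Of the 37 tested members that did not pass, log2 fold changes ran from -0.71 for ugt-52 to 0.85 for ugt-44. In 6 of them all rab-11.1 RNAi libraries lay above all empty vector libraries and in 6 below. Over all tested members the groups stood apart in 16 genes with higher rab-11.1 RNAi levels and in 12 with lower ones, which is 30.2% and 22.6% of them, beside 27.4% and 6.53% of all features. For 10 of the 37 the 95% confidence interval of the log2 fold change lay within -0.5 and 0.5, ugt-5 and ugt-58 among them.

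Several abundant members were in this set. The gene ugt-47 had 57.9, 46.7 and 66.6 RPKM after rab-11.1 RNAi, against 92.0, 73.4 and 90.1 RPKM with the empty vector (log2 fold change -0.58, SE 0.15, adjusted p = 0.0615). The gene ugt-44 had 103, 77.5 and 75.5 RPKM after rab-11.1 RNAi, against 44.3, 65.4 and 34.5 RPKM with the empty vector (log2 fold change 0.85, SE 0.24, adjusted p = 0.0743). Neither gene overlapped between the groups. Replicate 2 was the lowest library of both groups in ugt-47, and in ugt-44 it was the highest of the empty vector libraries. With the replicate number as a block, a fit described with the processing, both passed (adjusted p = 0.00783 for ugt-47 and 0.0334 for ugt-44), as did ugt-52 and ugt-48 on the lower side (adjusted p = 0.0192 and 0.0356) and ugt-43 and ugt-13 on the higher side (adjusted p = 0.0395 and 0.0215). Of these 6 genes only ugt-47 also passed with the block on replicates 1 and 2 alone (adjusted p = 0.0373), and ugt-44, ugt-52, ugt-48, ugt-43 and ugt-13 did not (adjusted p = 0.149, 0.0934, 0.0758, 0.151 and 0.0714). The block over all libraries gave 13 higher and 9 lower members, beside 16.5% and 4.47% of all features.

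Of the 10 most abundant members, ugt-58, ugt-1 and ugt-23 did not pass either. The gene ugt-58 averaged 42.2 ± 3.49 RPKM after rab-11.1 RNAi and 44.8 ± 7.58 RPKM with the empty vector (SD, n = 3 each), with a log2 fold change between -0.38 and 0.24 at 95% confidence. The gene ugt-1 averaged 42.7 ± 8.09 RPKM after rab-11.1 RNAi and 36.7 ± 5.88 RPKM with the empty vector, with an interval of -0.19 to 0.60. The gene ugt-23 averaged 29.8 ± 0.716 RPKM after rab-11.1 RNAi and 34.7 ± 1.37 RPKM with the empty vector (adjusted p = 0.111 by limma), and passed as lower under median-of-ratios scaling (adjusted p = 0.0404).

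The 12 members below the filter reached at most 2.02 RPKM in any library, seen for ugt-36 in empty vector replicate 2. The scarcest were ugt-35 and ugt-38. In ugt-35, 1 read was found in rab-11.1 RNAi replicate 1 and 3 reads in empty vector replicate 2. In ugt-38, 1 read was found in rab-11.1 RNAi replicate 2, 4 reads in the library labelled replicate 3 of rab-11.1 RNAi and 1 read in empty vector replicate 2, with 0 in the other 3 libraries. A floor of 3 reads stood for 0.0705 to 0.0772 RPKM in the rab-11.1 RNAi libraries and 0.0587 to 0.0651 RPKM in the empty vector libraries at the median length of the family, and it covers counting error only. Among all features tested, 27.4% stood apart as higher and 6.53% as lower, and the share below the filter was not worked out. Untested members whose libraries did not overlap numbered 4 of 12, all higher after rab-11.1 RNAi. Of these ugt-18 had 24, 32 and 25 reads after rab-11.1 RNAi, against 10, 10 and 18 reads with the empty vector, and ugt-56 had 33, 20 and 20 reads after rab-11.1 RNAi, against 14, 11 and 13 reads with the empty vector. The others were ugt-14 and ugt-34. In the other 8 untested genes, namely ugt-3, ugt-10, ugt-15, ugt-27, ugt-32, ugt-35, ugt-36 and ugt-38, the groups overlapped.

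Genes of the family lie on every autosome and on the X chromosome, with 41 of 65 on chromosome V. Counting a next member within 20 kb as a neighbour, 36 genes fell into 10 clusters and 29 stood alone. Of the 25 tested genes in clusters 5 were higher and 1 lower, and of the 28 tested genes that stood alone 5 were higher and 5 lower. Over all features 7.93% were higher and 1.07% lower. Whether genes in clusters and genes alone differ was not tested. Exons of 17 members overlap those of another annotated gene, 6 of them among the 16 past the threshold, and those of ugt-37 and ugt-40 overlap each other by 42 bases on the same strand. Predicted proteins of all members were of like size, at 501 to 558 residues in the longest isoform with a median of 530.

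Several members that passed had tested neighbours that did not. In the cluster of ugt-26, ugt-27, ugt-28 and ugt-25 on chromosome I (4721131 to 4735276), ugt-25 rose, while ugt-28 and ugt-26 had log2 fold changes of 0.44 and 0.00 (adjusted p = 0.118 and 0.995) and ugt-27 was below the filter. Next to ugt-19 on chromosome IV lies ugt-20, which averaged 3.94 ± 0.648 RPKM after rab-11.1 RNAi and 2.80 ± 0.158 RPKM with the empty vector (log2 fold change 0.37, SE 0.16, adjusted p = 0.192). Next to ugt-2 on chromosome V lies ugt-1, with a log2 fold change of 0.21 (SE 0.17).

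The 7 genes between 12790676 and 12830114 on chromosome V held a member past the threshold in each direction. Here ugt-16 was higher and ugt-6 lower, ugt-5 and ugt-4 did not pass (log2 fold changes 0.05 and -0.48), and ugt-3, ugt-18 and ugt-15 were below the filter. The next gene after ugt-16 is ugt-15, which had 6 to 24 reads after rab-11.1 RNAi and 13 to 74 reads with the empty vector. Another 7 genes, between 4887165 and 4911399 on chromosome V, held no call, with log2 fold changes of -0.14 to 0.64 in the 5 tested. In the cluster of 6 from 7139475 to 7169281 ugt-41 was higher, and ugt-40, ugt-39 and ugt-37 had log2 fold changes of 0.58, 0.45 and -0.10 without passing. Whether neighbours differ from each other in their response was not tested.

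**Figure D5:**
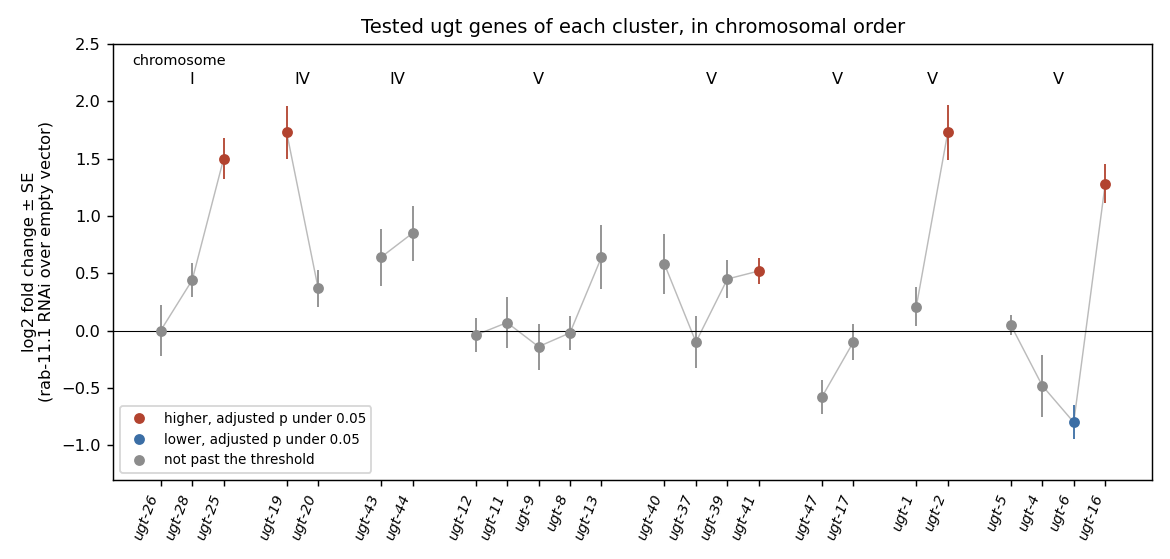
Log2 fold change ± SE of rab-11.1 RNAi over empty vector for tested ugt genes of clusters with 2 or more tested members, in chromosomal order, with grey lines joining genes of a cluster and the chromosome above. The points of ugt-25, ugt-19, ugt-2 and ugt-16 stand at 1.5, 1.73, 1.73 and 1.28, against 0.44, 0.37, 0.21 and -0.80 for the nearest tested gene of each one's cluster (ugt-28, ugt-20, ugt-1 and ugt-6). Of these ugt-6 lies more than 20 kb from ugt-16.

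The supply of UDP-sugars was read from 19 genes of sugar-nucleotide synthesis and transport, of which 16 were tested. In this list 1 gene was higher and 0 lower (6.25% and 0%, beside 7.93% and 1.07% of all features), with a median log2 fold change of 0.12. The gene that rose was gale-1, the epimerase that interconverts UDP-glucose and UDP-galactose. Its level was 212, 173 and 190.2 RPKM after rab-11.1 RNAi, against 85.8, 97.3 and 92.8 RPKM with the empty vector (log2 fold change 1.05, SE 0.10, adjusted p = 0.00261), and its call held whichever library was omitted (highest adjusted p = 0.0225). The UDP-glucose dehydrogenase gene sqv-4, which makes UDP-glucuronate, had 65.8, 74.6 and 59.9 RPKM after rab-11.1 RNAi, against 64.9, 62.8 and 66.1 RPKM with the empty vector (adjusted p = 0.814). K08E3.5, a UDP-glucose pyrophosphorylase gene, had 112, 113 and 113 RPKM after rab-11.1 RNAi, against 97.6, 120.5 and 96.3 RPKM with the empty vector (adjusted p = 0.538). With median-of-ratios scaling 1 gene of this list was higher and 1 lower, beside 4% and 2.05% of all features.

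Transporters that can carry conjugates and drugs out of cells were read from the 23 P-glycoprotein (pgp) and MRP genes, of which 21 were tested. Of these 3 were higher and 1 lower (14.3% and 4.76%, beside 7.93% and 1.07% of all features), with a median log2 fold change of 0.03. The gene pgp-1 had 52.8, 51.2 and 45.6 RPKM after rab-11.1 RNAi, against 12.8, 11.7 and 12.6 RPKM with the empty vector (log2 fold change 1.92, SE 0.09, adjusted p = 0.000382). The gene pgp-9 had 83.6, 65.5 and 69.9 RPKM after rab-11.1 RNAi, against 21.6, 25.8 and 24.2 RPKM with the empty vector (log2 fold change 1.57, SE 0.11, adjusted p = 0.0018). Both calls held whichever library was omitted (highest adjusted p = 0.00674 for pgp-1 and 0.0173 for pgp-9). The gene pgp-5 averaged 18.2 RPKM after rab-11.1 RNAi and 9.01 RPKM with the empty vector (adjusted p = 0.0157), and pgp-11 averaged 1.17 RPKM after rab-11.1 RNAi and 2.56 RPKM with the empty vector (adjusted p = 0.0281). The call of pgp-11 ended without any single library (highest adjusted p = 0.123). That of pgp-5 ended without rab-11.1 RNAi replicate 1, the library labelled replicate 3 of rab-11.1 RNAi, or empty vector replicate 1 or 3 (highest adjusted p = 0.0764).

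Of 25 regulators of detoxification genes 24 were tested, with a median log2 fold change of 0.22. In this list 3 genes were higher and 0 lower (12.5% and 0%, beside 7.93% and 1.07% of all features). They were xrep-4 (listed as F46F11.6), an F-box gene that acts upstream of the oxidative stress factor SKN-1, sbp-1, the sterol regulatory element binding factor of the worm, and nhr-8, a nuclear receptor gene needed for resistance to some toxins. Means of xrep-4 were 38.2 RPKM after rab-11.1 RNAi and 25.6 RPKM with the empty vector (adjusted p = 0.0133), and those of sbp-1 were 21.7 RPKM after rab-11.1 RNAi and 13.6 RPKM with the empty vector (adjusted p = 0.0198). Means of nhr-8 were 23.1 RPKM after rab-11.1 RNAi and 17.2 RPKM with the empty vector (adjusted p = 0.0429). All 3 calls ended without empty vector replicate 1 or 3 (highest adjusted p over fits that left out 1 library 0.0717, 0.0771 and 0.171). They also ended without rab-11.1 RNAi replicate 1 (xrep-4 and nhr-8) or 2 (sbp-1 and nhr-8) and without the library labelled replicate 3 of rab-11.1 RNAi (sbp-1 and nhr-8), and that of nhr-8 with median-of-ratios scaling (adjusted p = 0.146). The gene skn-1 itself had 46.5, 47.4 and 47.0 RPKM after rab-11.1 RNAi, against 40.9, 39.6 and 40.2 RPKM with the empty vector (log2 fold change 0.22, adjusted p = 0.0818).

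Other detoxification families were set beside the UGT genes by their counts. Over all features 7.93% were higher and 1.07% lower. Of 44 glutathione S-transferase (gst) genes 33 were tested, with 7 higher and 2 lower (21.2% and 6.06%, median log2 fold change 0.35). Of 81 cytochrome P450 (cyp) genes 55 were tested, with 14 higher and 3 lower (25.5% and 5.45%, median 0.33). Median-of-ratios scaling gave 4 higher and 3 lower gst genes and 7 higher and 3 lower cyp genes, beside 4% and 2.05% of all features. Without the library labelled replicate 3 of rab-11.1 RNAi, 4 gst genes were higher and 0 lower, and 7 cyp genes were higher and 1 lower. In that fit 4.17% of all features were higher and 0.596% lower. Over the fits that left out 1 library, 2 to 5 gst genes and 4 to 9 cyp genes were higher, and 0 to 2 gst genes and 1 to 3 cyp genes lower. In those fits 264 to 938 of all features were higher and 20 to 125 lower, of 13580 to 13717 tested. Differences between these families and the UGT family were not tested.

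Markers of other tissues and of stage were read in the same libraries, where 7.93% of all features were higher and 1.07% lower. The 13 gut markers summed to 4665 to 5985 RPKM after rab-11.1 RNAi and 5185 to 6155 RPKM with the empty vector, ranges that overlap. Most of this sum was asp-1 (mean 2890 RPKM after rab-11.1 RNAi and 3300 RPKM with the empty vector) and act-5 (1040 and 1220 RPKM). The overlap thus says little of the other gut markers. Of 13 tested, 1 gene was higher (cpr-1) and 2 lower (vha-6 and pho-1). The 9 yolk and adult cuticle genes, which mark the approach to adulthood, summed to 175.0 to 326.2 RPKM after rab-11.1 RNAi and 314.1 to 1558 RPKM with the empty vector, with 5 of 9 lower (col-7, col-62, vit-3, vit-4 and vit-5) and a median log2 fold change of -3.58. All 5 calls ended without rab-11.1 RNAi replicate 1, without empty vector replicate 1 and without empty vector replicate 3 (highest adjusted p over fits that left out 1 library 0.153, 0.157, 0.063, 0.0721 and 0.127), and those of vit-5 and col-7 also without the library labelled replicate 3 of rab-11.1 RNAi (adjusted p = 0.0676 and 0.053). Calls of col-7, col-62 and vit-5 likewise ended when replicate 2 of rab-11.1 RNAi was omitted. Over the fits that left out 1 library, 0 to 8 of these genes were lower, beside 20 to 125 of the 13580 to 13717 features tested. Empty vector replicate 2, at 314.1 RPKM, lay within the range of the rab-11.1 RNAi libraries at the deposited scaling. Germ line markers summed to 326.6 to 515.8 RPKM after rab-11.1 RNAi and 397.5 to 655.3 RPKM with the empty vector (0 of 11 tested passed). Sums of epidermal markers were 2167 to 2767 RPKM after rab-11.1 RNAi and 2214 to 2716 RPKM with the empty vector, with 1 of 10 higher. Neuron markers summed to 514.7 to 713.3 RPKM after rab-11.1 RNAi and 389.0 to 467.8 RPKM with the empty vector, with 1 of 10 higher, and the groups did not overlap at the deposited scaling, while they did after median-of-ratios scaling. Muscle markers summed to 4347 to 4759 RPKM after rab-11.1 RNAi and 5049 to 5262 RPKM with the empty vector, without overlap under either scaling, with 0 of 8 past the threshold and 2 lower (unc-54 and myo-3) under median-of-ratios scaling (adjusted p = 0.0376 and 0.0426). The calls of the epidermal gene elt-3 and the neuron gene snb-1 ended under that scaling (adjusted p = 0.0943 and 0.078). Each of the calls of cpr-1, vha-6, pho-1, elt-3 and snb-1 ended when replicate 1 of either group or empty vector replicate 3 was omitted. Without the library labelled replicate 3 of rab-11.1 RNAi, vha-6 passed (adjusted p = 0.0408), whereas cpr-1, pho-1, elt-3 and snb-1 did not (adjusted p = 0.0518, 0.0766, 0.0811 and 0.0578). The part of stage or tissue makeup in the changes of ugt genes was not tested.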

How the data were processed

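RNA of whole L4 larvae was measured in 6 libraries. The authors deposited RPKM values per feature and their group means, from paired reads per the file headers, on WBcel235 per the submitters' processing notes. Not given in the sources used here were the aligner, the counter, the annotation release and whether strand was used. Genes were placed with the Ensembl annotation of WBcel235, and all 65 members matched by symbol. No sequences were used.

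A feature entered the test if 3 or more libraries had 1 RPKM of it. The test was limma 3.58.1 in R 4.3.3 on values taken as log2(RPKM + 1), using eBayes with a trend and robust settings, two-sided, adjusted over all 13833 features. Fold changes on this scale understate changes of low genes. Adjusted p values are from this test unless another fit is named. Ratios are of mean RPKM. Leave-one-out fits kept the filter at 3 libraries. An exact permutation test of 3 against 3 cannot go below 0.1, and none was used. The test code was also run on simulated reads with independent noise between libraries. That simulation held no shared replicate pattern, scaling shift or stage difference, so it cannot vouch for the calls made here.

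Depths came from the RPKM steps, and whole reads within 1e-06 reads were found for all 19491 features above 0, with the length of the annotation for 2395 and a length inferred from the RPKM steps for 17096. Lengths of features with few reads may be off by a whole factor. Libraries of a group differed beyond sampling noise (chi-square per degree of freedom 11.4 to 64.6).

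Same-numbered libraries deviated together from their group means (correlation across features 0.40, 0.62 and 0.35). Deviations cancel out within a group, so the replicate 2 pattern also weighs on the values of replicates 1 and 3. The value for rab-11.1 RNAi replicate 1 with empty vector replicate 3 was likewise positive (0.18), and the 3 values are not separate evidence of pairing. The main test did not use the number, since no label says what it marks. The replicate block, which pairs libraries by number, was run as an alternative. No label states a pairing. Library codes in the file headers run in order of replicate number, without saying what that order marks. The library labelled replicate 3 of rab-11.1 RNAi correlated more with empty vector replicate 1 (0.46) than with empty vector replicate 3.

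The members and lists were chosen with earlier results of these data known, and the lists came from general knowledge. Named were members past the threshold, the 10 most abundant, and list genes past the threshold. Genes outside this rule (ugt-52, ugt-48, ugt-43, ugt-13, ugt-5, neighbours, scarce members, sqv-4, K08E3.5 and skn-1) were chosen after their values were seen. The ugt genes are paralogues, and reads may be shared between close copies.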

Additional observations from a re-analysis of the deposited data

How the results depend on the processing

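The 16 member calls kept their direction in every setting run. In all 16 the groups did not overlap, so leaving out libraries or changing the pseudocount, filter, trend or block could not turn it. The kept direction is thus no further test. Over the values of single members, 749 were on the same side of the threshold and in the same direction as in the report, 84 lost and 20 gained a call, and 36 changed sign with no call either way. For members higher, counts other than 10 were 9 with a pseudocount of 5, 11 without either replicate 2 library, 13 with the replicate block, 5 with no filter, 6 with no trend, 4 with median-of-ratios scaling, 4 with quantile normalization and 4 with the replicate block on replicates 1 and 2 alone, and 3 to 8 when 1 library was left out. Members lower numbered 0 to 6 when 1 library was left out, against 6. With the replicate block 13 members were higher and 9 lower, and all 16 calls held; it also moved all features to 2288 higher and 618 lower, against 1097 and 148. All features numbered 553 higher and 284 lower with median-of-ratios scaling, and 524 and 249 with quantile normalization. Without either replicate 2 library, an alternative added after seeing the data, they were 1652 and 467, with 11 members higher and 8 lower. With no filter, where members below the filter also entered, 846 of 19491 features were higher and 97 lower. With no trend 828 of 13833 were higher and 88 lower. A pseudocount of 5 gave 1062 of 13833 features higher, and the block on replicates 1 and 2 alone gave 753 of 13331. Leaving out 1 library gave 264 to 938 higher and 20 to 125 lower, of 13580 to 13717 features tested. The family median of 0.11 was 0.13 with a pseudocount of 0.1, 0.06 with a pseudocount of 5, 0.06 with no filter, 0.09 with a filter on the mean, 0.00 with median-of-ratios scaling, -0.04 with quantile normalization, 0.13 with limma-voom on recovered reads, 0.13 with the block on replicates 1 and 2 alone, 0.26 without both replicate 2 libraries, and 0.07 to 0.18 when 1 library was left out. The calls of ugt-21, ugt-41, ugt-62 and ugt-29 ended with no filter (adjusted p = 0.0517, 0.0564, 0.0596 and 0.0597) and with no trend (adjusted p = 0.0523, 0.0585, 0.063 and 0.0638), and that of ugt-24 with no filter (adjusted p = 0.0657) and a pseudocount of 5 (adjusted p = 0.0552). With the block on replicates 1 and 2 alone 7 of the 16 calls held. Leaving out a library lowers the sample size, and the cause of the other moves was not tested.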
